A study of Mus musculus with 27 samples.

Results

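The replication-dependent histone genes of the mouse were followed through 19 bulk RNA-seq libraries of pluripotent cells. These genes carry symbols from Hist1h to Hist4h, and 69 of the 23604 genes in the expression table bore such a name. Of them, 6 encode the linker histone H1, 19 encode H2A, 19 encode H2B, 12 encode H3 and 13 encode H4. The first gene cluster, on chromosome 13, held 55 members, the second held 10, the third 3 and the fourth 1. Levels were deposited as FPKM, fragments scaled by transcript length and by the mapped fragments of the library, so they are comparable between genes per length.

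All cells were mouse and wild type by their labels. Of the fPSC lines named below, the authors describe 46C as a Sox1-GFP reporter and BVSC as a Blimp1 and Stella reporter. ROSAmTmG cells carry tdTomato by the same account. The 2 mESC libraries were of embryonic stem cells kept without feeders on gelatin in N2B27 with 1 uM PD035901, 3 uM Chir99021 and 1000 units/ml hLIF. The 2 EpiLC libraries came from epiblast-like cells in N2B27 to which bFgf2 (12 ng/ml), Activin A (20 ng/ml) and KSR (1%) were added. Epiblastoids were grown embedded in Matrigel in that same medium, with 1 library each for days 2, 3 and 4. The 2 EpiSC libraries were of epiblast stem cells kept on mitomycin C-inactivated mouse embryonic fibroblasts, with KSR at 15%, XAV939 at 5 uM, bFGF2 and Activin A. Formative cells, fPSCs, were also grown embedded in Matrigel by the authors' account. Their medium was N2B27 with both of these factors at those doses, without KSR but with XAV939 (5 uM). XAV939 is a tankyrase inhibitor that dampens Wnt signaling. The labels of the later fPSC set described next give the XAV939 dose in mM rather than uM. There was 1 fPSC library at passage 1 (P1), 7 of established fPSCs and 2 of fPSCs derived from E5.5 and E6.5 epiblasts. The 7 established libraries comprised P10, P20 and P30 of a first set of records and those of 4 lines in a later set, ROSAmTmG P12, BVSC P14, 46C P24 and CMT P11, whose labels name another library kit. Where nothing says that replicates were separate cultures, p-values measure only the spread between these libraries, which may be technical.

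Replication-dependent histone genes supply the core histones H2A, H2B, H3 and H4, around which DNA is wrapped, and H1, which binds the linker DNA, while DNA is being copied in S phase. Their mRNAs are the main class of animal mRNA without a poly(A) tail: the transcript is cut just after a short stem-loop, which is bound by SLBP. Replacement histones, such as H3.3 and H2A.Z, come instead from genes whose mRNAs are polyadenylated and which are expressed throughout the cell cycle. How a library was made therefore bears on which of these mRNAs it holds. Poly(A) selection or its absence is not given in the sources used here for any of the 19 libraries.

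The stem-loop marks the family by sequence. Its letters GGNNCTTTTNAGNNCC lay within 200 bases after the annotated coding part in 58 of the 66 members annotated as protein-coding, and in 4 of 22313 other protein-coding genes (0.0179%). It began at a median of base 35 there, stop codon included, with a range from 25 to 62. Examples from each type are printed on the transcribed strand of mm9, with the stem-loop in capitals, since all 58 had stems whose arms paired perfectly while 6 letter combinations occurred.
Hist1h2ap: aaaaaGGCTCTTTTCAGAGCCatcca
Hist1h2ak: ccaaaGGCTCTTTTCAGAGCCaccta
Hist1h2bk: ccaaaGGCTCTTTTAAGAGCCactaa
Hist1h3h: tcaaaGGCTCTTTTCAGAGCCaccca
Hist1h4i: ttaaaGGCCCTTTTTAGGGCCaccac
Hist1h1c: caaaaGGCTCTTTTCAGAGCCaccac
The capitals of Hist1h2ap lie at chr13:21924898-21924913 on the minus strand, past the annotated end of its single exon (chr13:21924926-21925444). Those of Hist1h4i lie at chr13:22132835-22132850, inside its annotated transcript on the minus strand. The form shown for Hist1h2ap was the most common, in 36 members, and that of Hist1h2bk occurred in 9. Hist1h2ap, at 491 FPKM in its highest library, and Hist1h2ak, a gene of the same type that stayed below 4 FPKM in all of them, carried the same 16 letters.

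Most of the family was close to the lower end of the scale. Of the 69 members, 48 reached 1 FPKM in at least 1 library and 21 were below it in all 19. A level of 10 FPKM was reached by 12 members, of which 11 encode H2A: Hist1h2ab, Hist1h2ad, Hist1h2ae, Hist1h2af, Hist1h2ag, Hist1h2ah, Hist1h2ai, Hist1h2aj, Hist1h2an, Hist1h2ao and Hist1h2ap. The twelfth was the H4 gene Hist1h4i. These 11 H2A genes are called the abundant H2A genes here. They were set apart by their highest level, so their counts in the comparisons describe them and support nothing further.

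The 2 mESC libraries and the Epiblastoid library of day 3 stood apart from the other 16 in H2A. Summed over the 19 H2A genes, the level was 1939 and 1598 FPKM in mESCs and 2057 FPKM in Epiblastoids on day 3. In the other 16 libraries the sum ran from 9.86 FPKM (E6.5 fPSCs) to 35.8 FPKM (fPSCs CMT P11), with a median of 16.9. Days 2 and 4 of the Epiblastoids, at 14.2 and 21.4 FPKM, lay inside that range. The family as a whole took 0.507%, 0.399% and 0.550% of the FPKM in those 3 libraries, and the abundant H2A genes made up 96.8%, 96.2% and 95.6% of the family's part. In bulk RNA, fewer cells expressing a gene and less RNA per cell cannot be told apart.

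**Figure D1:**
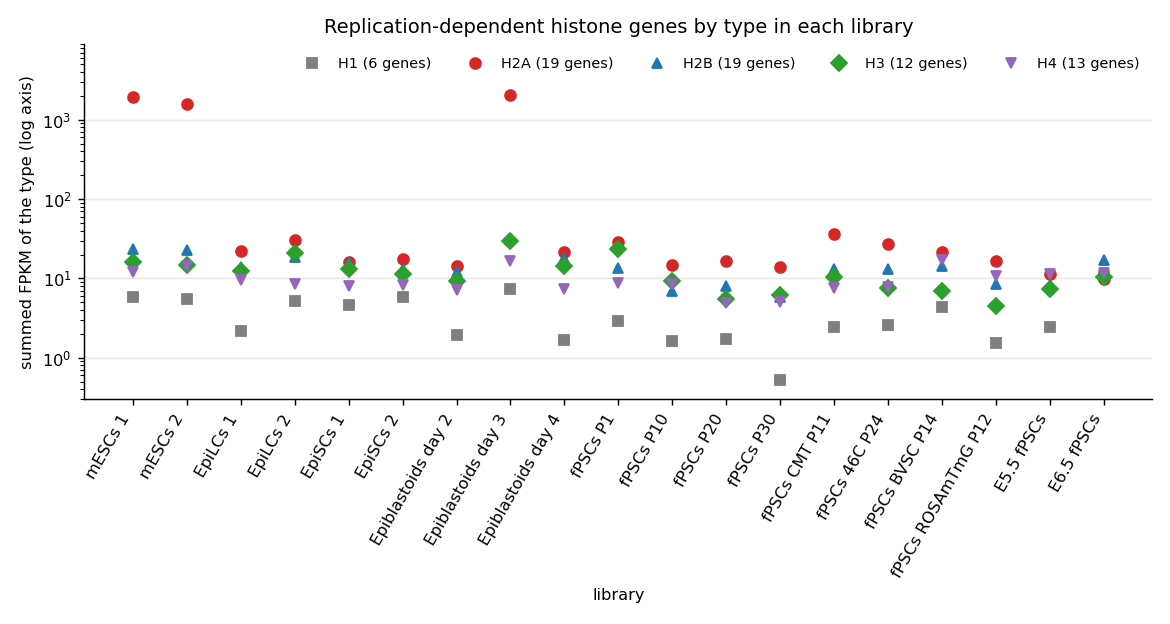
Summed FPKM of the members of each histone type (log axis) in each of the 19 libraries, 1 point per type and library. The H2A sum was between 1598 and 2057 FPKM in both mESC libraries and in Epiblastoids of day 3 and at most 35.8 FPKM elsewhere, while no other type exceeded 31.0 FPKM in any library.

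Hist1h2ap had the highest mean level of the family. It measured 439 and 410 FPKM in mESCs, and 2.56 and 4.23 FPKM in EpiLCs. EpiSCs had 1.20 and 1.71 FPKM, and Epiblastoids 1.74, 491 and 1.67 FPKM on days 2, 3 and 4. In fPSCs it was 3.23 FPKM at P1, and the 7 established libraries ran from 2.02 to 8.40 FPKM with a median of 3.27. The epiblast-derived fPSCs had 0.845 (E5.5) and 1.24 FPKM (E6.5). Neither mESC replicate came near the values of any group other than day 3.

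Hist1h2an followed the same order at a lower level. Its 291 and 206 FPKM in mESCs stood against 1.35 and 2.51 in EpiLCs and 0.629 and 1.07 in EpiSCs. On day 3 it was 268 FPKM, between 1.20 on day 2 and 1.47 on day 4. The 7 established fPSC libraries ran from 0.661 to 2.68 FPKM. Hist1h2aj, which the annotation used here lists as a pseudogene, measured 279 and 305 FPKM in mESCs and 401 FPKM on day 3, and at most 4.27 FPKM in the other 16 libraries.

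The remaining abundant H2A genes spanned a wide range of levels with the same libraries on top. Hist1h2ah had 250, 172 and 215 FPKM in the 2 mESC libraries and on day 3, Hist1h2ad had 166, 107 and 172, and Hist1h2af had 158, 103 and 130. Hist1h2ao, Hist1h2ai and Hist1h2ab lay between 53.0 and 155 FPKM there. The lowest pair was Hist1h2ag, at 22.0, 16.6 and 20.8 FPKM, and Hist1h2ae, at 15.5, 11.8 and 17.0 FPKM. For each of the 11 genes, all 3 of those libraries were above the other 16. Hist1h2ae came closest to overlapping, with 5.23 FPKM in fPSCs P1.

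**Figure D2:**
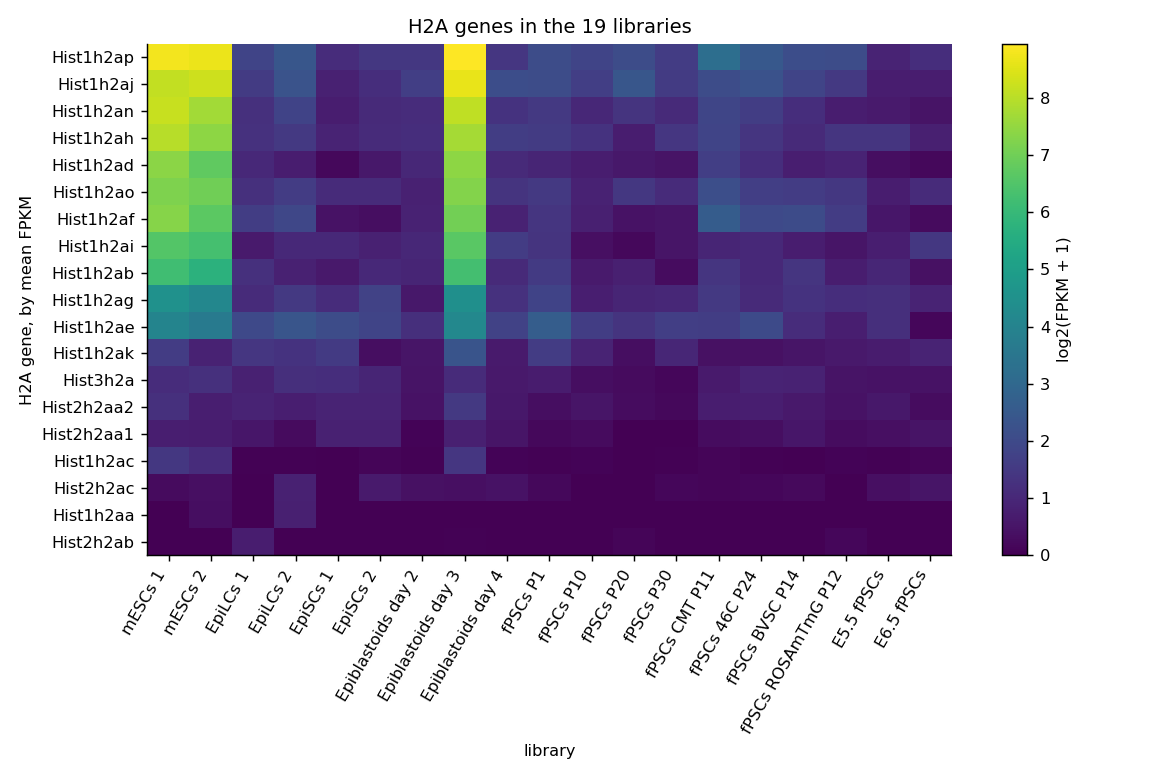
log2(FPKM + 1) of the 19 H2A genes (rows, by mean FPKM) in the 19 libraries (columns). The 11 upper rows are bright in mESCs 1, mESCs 2 and Epiblastoids day 3, while Hist1h2ak, at 2.01, 0.801 and 3.96 FPKM in these libraries, and the other low genes are dark throughout.

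The other 8 H2A genes summed to 7.22 and 5.25 FPKM in mESCs and 9.70 FPKM on day 3, against 0.75 to 5.14 FPKM elsewhere. Their coding sequences are not all far from the abundant ones. Compared over the 390 coding bases of Hist1h2ap, Hist1h2ak was 97.2% identical and Hist1h2ac 98.7%, against 97.9% for Hist1h2ab. Hist1h2ac stayed at or below 1.76 FPKM. FPKM is scaled by the annotated transcript, of 2482 bases for Hist1h2ac and 506 for Hist1h2ab, so their contrast depends on the annotation. Both low genes were picked for this comparison after their values were seen. Hist2h2ab was 83.3% identical and Hist3h2a 88.7%.

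Levels of single H2A genes are uncertain because copies share sequence. Hist1h2ap and Hist1h2ao have identical annotated transcripts of 519 bases, but the deposited levels were 439 and 147 FPKM in the same mESC library, and these separate levels are uncertain. Their sum was 587 and 539 FPKM in mESCs and 646 FPKM on day 3. Of all 50-base windows in an abundant H2A transcript, a median of 79.7% occurred in another gene's transcript as well, with a range from 31.3% to 100%. The median was 30.8% for the other H2A genes, 47.2% for H2B, 53.3% for H3, 43.0% for H4 and 2.16% for H1. How reads that fit several positions were counted is not given in the sources used here.

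Several abundant H2A genes lie head to head with an H2B gene and share the stretch between the start sites with it. Such pairs, with annotated starts at most 500 bases apart, numbered 14, and 9 of them held an abundant H2A gene. The H2A genes of these 9 pairs had highest levels from 17.0 to 491 FPKM, whereas their H2B partners peaked between 0.787 and 6.55 FPKM and none reached 10 FPKM. Hist1h2br, the partner of Hist1h2ap, had 2.58 and 2.17 FPKM in mESCs and 1.56 FPKM on day 3. Its annotated transcript has 2197 bases in 3 exons, and that of Hist1h2ap has 519 bases in 1 exon. FPKM is scaled by such lengths, so the contrast within this pair depends on the annotation. Hist1h2bp, opposite Hist1h2an, had 0.846 and 0.971 FPKM in mESCs and 1.5 FPKM on day 3. Hist1h2bk, opposite Hist1h2ah, was the highest partner, at 5.09, 4.36 and 6.55 FPKM. The sequence between the starts is printed for the 2 abundant genes named for the family and for Hist1h2ak, which is low together with its partner Hist1h2bn, reading towards the H2A gene on the minus strand of mm9. Capitals mark CCAAT and TATAAA, on either strand.
Hist1h2ap and Hist1h2br: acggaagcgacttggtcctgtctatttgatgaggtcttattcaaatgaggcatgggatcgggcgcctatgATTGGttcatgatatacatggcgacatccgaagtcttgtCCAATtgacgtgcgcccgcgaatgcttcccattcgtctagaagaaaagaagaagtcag
Hist1h2an and Hist1h2bp: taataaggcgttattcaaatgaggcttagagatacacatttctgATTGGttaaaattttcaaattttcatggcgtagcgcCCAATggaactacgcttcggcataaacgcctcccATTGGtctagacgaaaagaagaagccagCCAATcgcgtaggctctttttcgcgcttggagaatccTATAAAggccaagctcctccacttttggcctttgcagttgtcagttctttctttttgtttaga
Hist1h2ak and Hist1h2bn: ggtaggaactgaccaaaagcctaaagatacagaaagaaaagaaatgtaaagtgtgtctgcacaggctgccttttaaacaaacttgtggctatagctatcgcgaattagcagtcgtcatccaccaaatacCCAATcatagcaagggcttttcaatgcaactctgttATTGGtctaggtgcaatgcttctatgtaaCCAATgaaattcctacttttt
These stretches lie at chr13:21925445-21925611, chr13:21879088-21879329 and chr13:21845777-21845991. Each holds CCAAT on at least 1 strand, and TATAAA occurs only between Hist1h2an and Hist1h2bp among the 3.

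Over the 250 bases before each annotated start, on both strands, CCAAT was found in 57 of 69 members (82.6%) and in 35% of 22380 protein-coding genes. TATAAA was found in 33 members (47.8%), against 12.34% of those genes, and in 3 of the 11 abundant H2A genes. The octamer ATTTGCAT was present in 16 members (23.2%), against 1.622%, namely in 7 H2A and 9 H2B genes and in no H1, H3 or H4 gene. H4 genes held CCAAT in 4 of 13. Head-to-head pairs share most of such a window, so these counts are not independent. A match is a description of the letters only.

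Outside H2A the family varied over a much smaller range. The H2B sum was 23.3 and 23.1 FPKM in mESCs and 31.0 FPKM on day 3, and 5.87 to 18.9 FPKM in the other 16 libraries, so that the same 3 libraries were again above the rest. The H3 sum was 15.9, 15.0 and 29.9 FPKM in those 3 libraries and 4.46 to 23.3 FPKM elsewhere, and the H4 sum was 11.9, 14.5 and 16.8 FPKM against 4.87 to 17.2 FPKM. H1 had 5.87, 5.53 and 7.40 FPKM, against 0.525 to 10.6 FPKM. For H1, H3 and H4 the ranges overlapped, through E6.5 fPSCs and EpiSCs 2 for H1, EpiLCs 2 and fPSCs P1 for H3, and BVSC P14 for H4. The ratio of summed H2A to summed H2B was 83.2 and 69.2 in mESCs and 66.4 on day 3, and between 0.582 and 2.70 in the other libraries.

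Day 3 held the highest level of several members of other types. The H3 gene Hist1h3h reached 7.82 FPKM there, against 2.35 on day 2 and 3.44 on day 4, and Hist1h3c reached 6.15 FPKM against 0.983 and 2.31. Hist1h2bk was at 6.55 FPKM on day 3, above the 5.09 and 4.36 FPKM of mESCs. Hist1h1a, a linker histone gene, had 3.33 FPKM on day 3 and 2.42 and 2.30 FPKM in mESCs, close to EpiLCs 2 with 2.34 FPKM.

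A few members peaked in other libraries. Hist1h4i was highest in BVSC P14 at 13.1 FPKM, followed by ROSAmTmG P12 with 7.37 and E5.5 fPSCs with 6.93 FPKM, and was between 0.995 and 3.12 FPKM in the other 16. The linker gene Hist1h1c was highest in E6.5 fPSCs at 7.27 FPKM, with 3.99 and 4.60 FPKM in EpiSCs and 2.26 and 2.53 FPKM in mESCs. Hist3h2ba, an H2B gene of the third cluster, was lowest in mESCs 2 at 0.156 FPKM and highest in BVSC P14 at 5.98 FPKM.

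**Figure D3:**
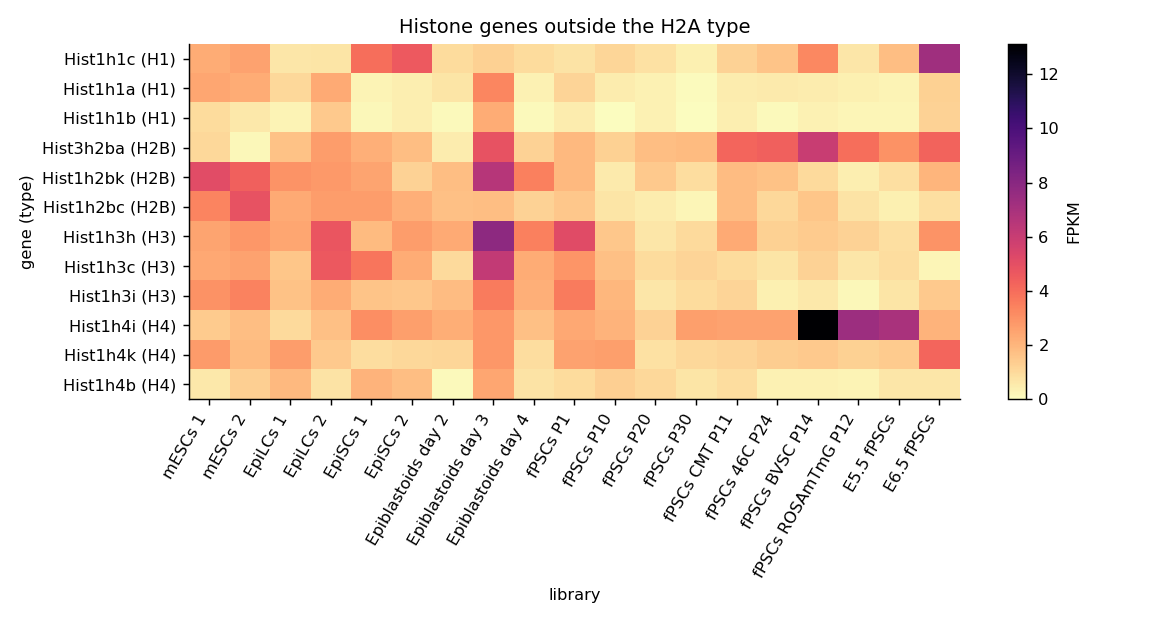
FPKM (linear colour scale) of the named genes outside H2A, the 3 with the highest mean in each type, in the 19 libraries. Hist1h4i in BVSC P14 is the darkest cell at 13.1 FPKM, and Hist1h3h, Hist1h3c and Hist1h2bk are darkest on day 3 in their own rows.

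Markers were read first to check the labels. The 9 naive genes summed to 3196 and 3747 FPKM in mESCs and each was lower in EpiLCs, fPSCs and EpiSCs by the tests described next. The naive sum was 238 FPKM on day 3, so that day 3 resembled mESCs in H2A but not in these markers. The 5 formative genes were all higher in EpiLCs and in fPSCs than in mESCs. Genes of the feeder fibroblasts summed to 1748 and 1986 FPKM in EpiSCs, and to between 31.0 and 97.6 FPKM elsewhere.

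Groups were compared with limma on log2(FPKM + 1), and genes were called when the change was at least 1.5-fold with a p under 0.05 after Benjamini-Hochberg adjustment. Fold changes on this scale understate the change of low genes. Of the 69 members, 36 reached 1 FPKM in at least 2 libraries of the fit and were tested, and 33 were not. The comparisons of EpiLCs, fPSCs and EpiSCs with mESCs use the same 2 mESC libraries.

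In EpiLCs, 13 members were lower than in mESCs and none was higher, where 29.6% of all 12513 genes were called and 17.4% were lower. Of the 14 tested H2A genes 12 fell, with a median log2 change of -5.42 over the 14, against -0.06 over all genes. Hist1h2ap fell by 6.62 on the log2 scale (SE 0.42, adjusted p = 1.10e-07) and Hist1h2an fell by 6.42 (SE 0.36, adjusted p = 3.51e-08). No H1, H2B or H3 gene was called in limma's test, out of 2, 8 and 7 tested, with median log2 changes of -0.69, -0.54 and 0.12. Among the 36 tested members, 17 had an unadjusted p under 0.05. The call outside H2A was Hist1h4m, and the call outside the abundant H2A genes was Hist1h2ac, both named after their values were seen. Both calls were lost when either mESC library was left out, which gave 11 calls each time. Each of those fits tested 34 members. Hist1h2ac was not among them, since outside mESCs it reached 1 FPKM in no library of the fit. Hist1h4m may not have been among them either.

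In fPSCs, 27 members were lower and 1 was higher than in mESCs, where 40.3% of all genes were called, 23.0% lower and 17.3% higher. H2A contributed 13 lower genes of 14 tested, H2B 7 of 8, H3 4 of 7, H4 2 of 5 and H1 1 of 2. Hist1h2an fell by 6.68 on the log2 scale (SE 0.29, adjusted p = 9.54e-10) and Hist1h2ap fell by 6.53 (SE 0.33, adjusted p = 5.54e-09). The H2B genes changed far less, with a median of -1.14. Hist1h2bk, at 5.09 and 4.36 FPKM in mESCs and 0.440 to 1.82 FPKM in the 7 fPSC libraries, fell by 1.48 (SE 0.26, adjusted p = 0.000542). Hist3h2ba rose by 1.39 (SE 0.40, adjusted p = 0.0121), with 1.06 and 0.156 FPKM in mESCs and 1.26 to 5.98 FPKM in fPSCs. Without mESCs 2 that call was lost, at a log2 change of 0.97 and an adjusted p of 0.191. Leaving out mESCs 1 or mESCs 2 gave 23 and 22 calls. With fPSCs of the first records alone there were 28 calls, and with those of the later records alone 26.

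In EpiSCs, 18 members were lower than in mESCs and none was higher, where 47.8% of all genes were called and 24.7% were lower. They were 12 H2A genes, 3 H2B genes and 1 gene each of H1, H3 and H4. Hist1h2ap fell by 7.45 on the log2 scale (SE 0.42, adjusted p = 1.57e-08) and Hist1h2aj fell by 7.19 (SE 0.34, adjusted p = 2.73e-09). Hist1h1a fell by 1.31 (SE 0.21, adjusted p = 0.000268), from 2.42 and 2.30 FPKM to 0.277 and 0.430 FPKM. Without mESCs 1 or mESCs 2 there were 14 calls each. The fibroblast genes named above were higher in EpiSCs in 9 of 9 tested, and their part in the result was not tested.

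Across these comparisons 13 members were lower each time, namely 12 H2A genes and Hist1h4m. Of these, Hist1h2ac was tested only because it reached 1 FPKM in both mESC libraries, at 1.76 and 1.21 FPKM. It could therefore be called in no direction but lower, and its calls are no evidence of a fall. Neither Hist1h2ac nor Hist1h4m was called in any of these comparisons when either mESC library was left out. Those fits tested 34 members instead of 36, so Hist1h4m may have been lost by not being tested. Its calls are therefore not taken as evidence of a fall either. The 11 abundant H2A genes were lower under all 11, 10 and 12 settings run for EpiLCs, fPSCs and EpiSCs.

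**Figure D4:**
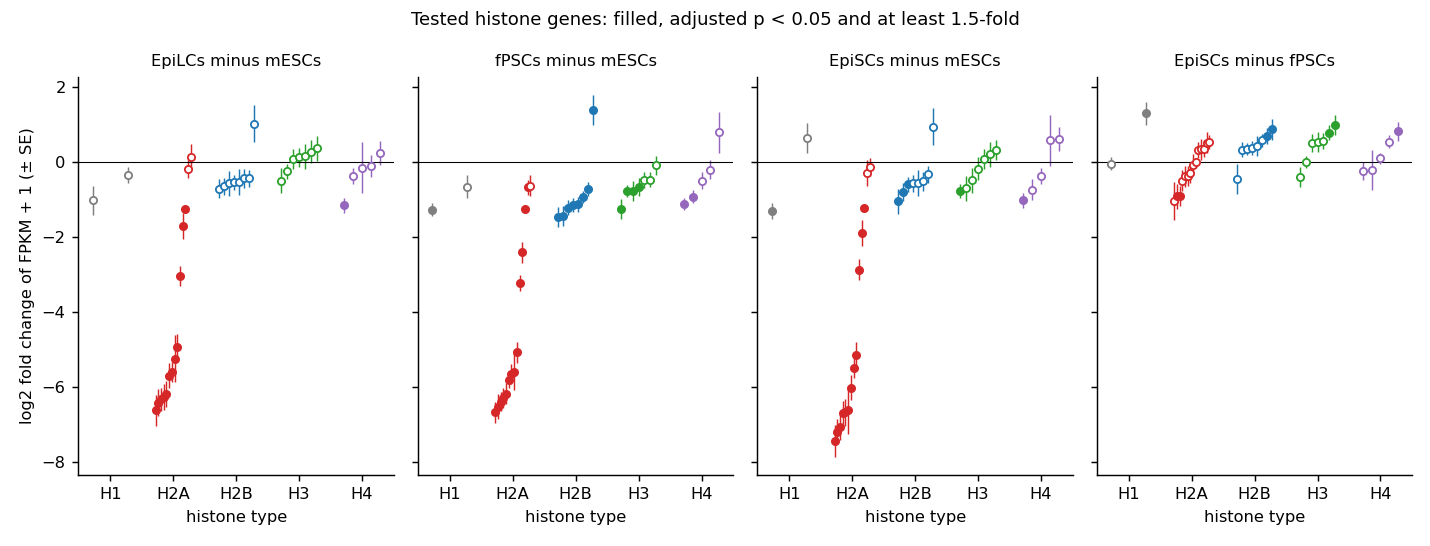
log2 fold change of FPKM + 1 with its SE for each tested member, by histone type, in 1 panel per comparison; filled points were called. H2A points reach down to -6.62, -6.68 and -7.45 in EpiLCs, fPSCs and EpiSCs against mESCs, and the other types stay between -1.48 and 1.39.

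EpiSCs and fPSCs were both low in H2A, and 8 of the 36 tested members were called between them. Relative to fPSCs, 6 of the 36 tested members were higher and 2 lower in EpiSCs. Of all genes 32.3% were called, 19% higher and 13.3% lower. Hist1h1c rose by 1.30 on the log2 scale (SE 0.31, adjusted p = 0.00657), with 3.99 and 4.60 FPKM in EpiSCs against 0.385 to 3.25 FPKM in fPSCs. Hist1h3c rose by 0.98 (SE 0.27, adjusted p = 0.0131), and the H2B gene Hist1h2bc and the H4 gene Hist1h4b rose by 0.87 and 0.82. Hist1h2ap fell by 0.91 (SE 0.33, adjusted p = 0.0493) and Hist1h2aj fell by 0.90 (SE 0.27, adjusted p = 0.0208). These calls rested on both EpiSC libraries: 2 of the 8 remained without EpiSCs 1 and 2 of the 8 without EpiSCs 2, where Hist1h2br was called in addition. Against fPSCs of the first records alone there were 8 calls, and against those of the later records alone 12. Fibroblast genes were higher in EpiSCs in 8 of 9 tested, Col1a1 measuring 111 and 153 FPKM there and at most 0.878 FPKM in the other 17 libraries, and their part in the result was not tested.

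The rise and fall of H2A in Epiblastoids took place between single libraries, so no test was possible. Ratios here are of FPKM + 1, which understates the change of low genes. From day 2 to day 3, 24 of the 43 members that reached 1 FPKM in either library went up more than 2-fold and none went down, where 5.58% of 11095 genes moved this far, 3.11% up and 2.47% down. By type these were 14 of 15 H2A genes, 3 of 11 H2B, 3 of 8 H3, 2 of 6 H4 and 2 of 3 H1 genes. The median log2 ratio was 5.68 for H2A and 0.76 for H2B, against 0.12 for all genes. From day 3 to day 4, 21 members went down more than 2-fold and none went up, where 16.1% of 11357 genes moved this far, 8.22% down and 7.85% up. H2A had 13 of its 15 genes among them, with a median log2 ratio of -5.18.

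Few other genes shared this course. In FPKM itself, day 3 exceeded both day 2 and day 4 by more than 5-fold for 57 of 13248 genes (0.43%). Of these, 14 were members, 13 of them H2A genes. Both mESC libraries exceeded both EpiLC libraries by more than 5-fold for 712 genes (5.37%), among them 12 members. Both patterns were met by 25 genes (0.189%), that is 43.9% of the first list and 3.51% of the second, and 11 of the 25 were H2A members. The other 14 were listed after their values were seen. Among them were Dcdc2a, Dcstamp, Obox6, Prr5l, Rasl10a, Rpl13-ps6, Srrm4os and Tmprss5. The rest were the small nuclear RNA genes Rnu1a1 and Rnu5g and the microRNA genes Mir32, Mir703, Mir718 and Mir5132.

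Genes outside the family were also ranked by Pearson's r with the mean log2(FPKM + 1) of the H2A members over the 19 libraries, among 7821 genes that reached 10 FPKM. The pseudogene Rpl13-ps6 came first (r = 0.964), with 16.7 and 13.1 FPKM in mESCs, 11.5 FPKM on day 3 and 0.480 to 2.21 FPKM elsewhere. Mir703 (r = 0.919) had 15.9, 25.0 and 28.9 FPKM in those 3 libraries and at most 4.12 FPKM in the rest. Fbxo31 (r = 0.896), an F-box protein gene, Nsf (r = 0.882), which encodes an ATPase of vesicle fusion, and Wdr91 (r = 0.879) followed with far smaller contrasts: Nsf, for one, had 20.8 to 27.2 FPKM against 14.9 to 19.4 FPKM. Such correlations describe 19 libraries in which 3 are far from the others.

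Within the 7 established fPSC libraries the H2A sum ran from 13.9 to 35.8 FPKM, and the set of records was compared within them. Of the 21 members tested, 3 were higher in the 4 later libraries than in the first 3 and none was lower, where 29.7% of 10930 genes were called, 20.8% higher and 8.93% lower. Hist1h2af rose by 1.47 on the log2 scale (SE 0.23, adjusted p = 0.00159), with 0.354 to 0.708 FPKM in the first libraries and 1.99 to 5.04 FPKM in the later. Hist3h2ba rose by 1.10 (SE 0.16, adjusted p = 0.00109), from 1.26 to 1.85 FPKM in the first libraries up to 3.97 to 5.98 FPKM in the later. Hist1h2bc rose by 0.63 (SE 0.21, adjusted p = 0.0359), a call lost without P20, P30, BVSC P14 or CMT P11. Without ROSAmTmG P12 there were 5 calls. The sets differ in kit, culture record and line, which cannot be told apart. CMT P11 is of the same line as the first 3 but was cryopreserved, so line is the only one of these that it holds constant. Fitted as a lone library assumed to vary like the first 3, it gave calls for Hist3h2ba, Hist1h2ao and Hist1h2ap. The median log2 change of all genes between the sets was 0.19.

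Other RNAs that lack a poly(A) tail were read beside the histone genes. Of 23 listed, 10 reached 1 FPKM in some library. Rn7s1, the RNA of the signal recognition particle, had 391 and 1641 FPKM in mESCs, 2.66 and 6.39 FPKM in EpiLCs and 1.58 and 2.08 FPKM in EpiSCs. On days 2, 3 and 4 it had 4.61, 300 and 279 FPKM. In fPSCs it was 103 to 134 FPKM at P10, P20 and P30, 1.08 to 2.79 FPKM in the later set and 194 and 178 FPKM in E5.5 and E6.5 fPSCs. Rn7s1 was thus high in mESCs and on day 3, as H2A was, but also in 6 libraries where H2A was low.

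Rn7sk, a regulator of transcription elongation, measured 67.5 FPKM in mESCs 1 and 2.96 FPKM in mESCs 2, and 48.0 and 139 FPKM on days 3 and 4. Rpph1, the RNA of ribonuclease P, measured 5.85 FPKM in mESCs 1, 200 FPKM in mESCs 2 and 1.45 FPKM on day 3. Pearson's r with the H2A mean over the 19 libraries was 0.131 for Rn7sk, 0.529 for Rn7s1, 0.540 for Rn7s2, 0.663 for Rpph1, 0.737 for Rmrp and 0.771 for Terc, the last at no more than 1.23 FPKM, and between -0.376 and 0.276 for the other 4 that reached 1 FPKM. Of the 8 listed RNAs tested, 4 were lower in EpiLCs, 4 in fPSCs and 5 in EpiSCs than in mESCs. None was higher, the same direction as the H2A genes. Over all genes, 17.4%, 23.0% and 24.7% were lower in these groups. Between the fPSC record sets 3 of the list fell, Rn7s1 by 5.5 on the log2 scale (adjusted p = 1.09e-05 in limma), and 3 rose. Over all genes, 8.93% were lower and 20.8% higher in the later set. The part of library preparation in the histone values was not tested.

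**Figure D5:**
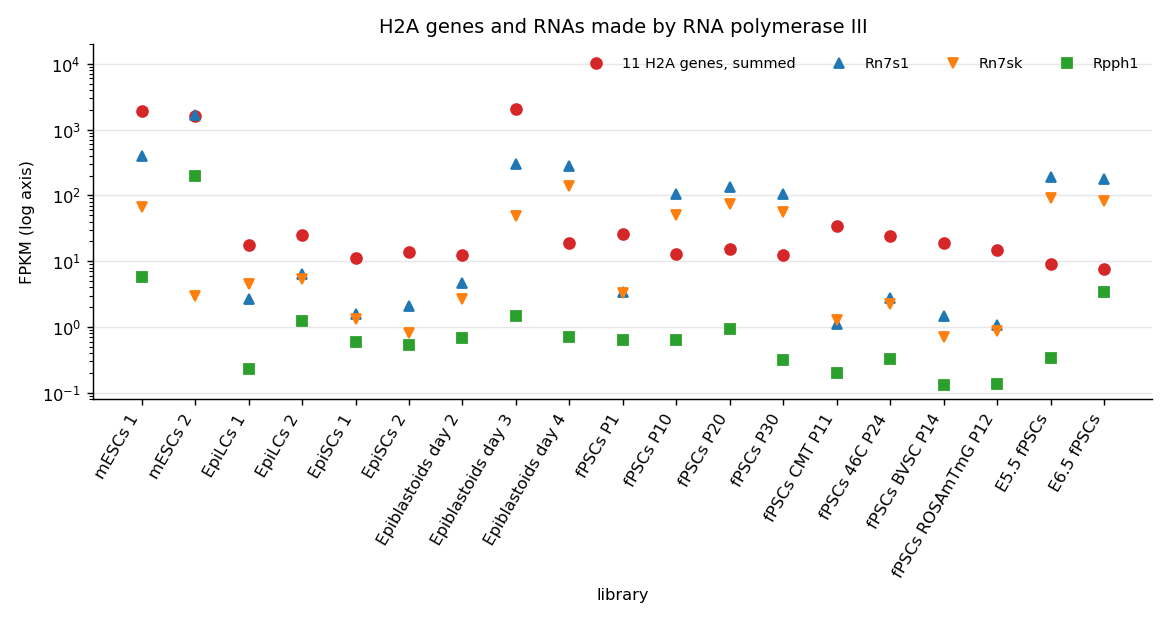
FPKM (log axis) of the 11 abundant H2A genes, summed, and of Rn7s1, Rn7sk and Rpph1 in each library. The H2A sum is at least 1593 FPKM in mESCs and on day 3 and at most 33.9 FPKM elsewhere, while Rn7s1 is above 100 FPKM also on day 4, at P10, P20 and P30 and in epiblast-derived fPSCs.

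Factors that make and cut histone mRNAs were read next. Of 20 such genes in the table, among them Slbp, Casp8ap2 and subunits of the Lsm ring and the cleavage complex, none was called between EpiLCs and mESCs by limma. In fPSCs 6 were higher than in mESCs, led by Snrpf (log2 change 1.14) and Cpsf2 (0.74), where 17.3% of all genes were higher. EpiSCs had 1 higher and 6 lower than mESCs, and 9 lower than fPSCs. Over all genes, 23.1% were higher and 24.7% lower than in mESCs, and 13.3% lower than in fPSCs. The largest falls against mESCs were those of Snrpg, a subunit of the ring (-2.28), and Casp8ap2 (-1.86), which encodes the FLASH protein of the histone locus body. Between fPSC record sets 6 were higher in the later, led by Casp8ap2 (1.25) and the cap-binding gene Ncbp2 (1.1). There 20.8% of all genes were higher.

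Genes of DNA replication and the G1/S transition, 28 in the list, summed to 2003 to 2047 FPKM in mESCs and on day 3 and to 1407 to 2213 FPKM in the other libraries, so that the ranges overlapped. Against mESCs, 2 were higher and 4 lower in EpiLCs, 3 higher and 7 lower in fPSCs, and 1 higher and 12 lower in EpiSCs. Over all genes tested, 12.2% were higher and 17.4% lower in EpiLCs, 17.3% and 23.0% in fPSCs, and 23.1% and 24.7% in EpiSCs. Ccne1, the gene of cyclin E1, rose by 1.73 on the log2 scale in EpiLCs and E2f1 fell by 1.18. Pola1, of DNA polymerase alpha, fell by 1.41 in fPSCs and by 2.71 in EpiSCs. EpiSCs also had 8 of the list lower than fPSCs, and the later fPSC records had 8 higher than the first. Over all genes, 13.3% and 20.8% were called in these directions.

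Of 12 replacement histone genes, 3 were lower in EpiLCs, 5 in fPSCs and 6 in EpiSCs than in mESCs, and none was higher. Over all genes, 17.4%, 23.0% and 24.7% were lower in these groups. H2afy, the gene of macroH2A1, fell by 4.24 on the log2 scale in EpiLCs and by 2.58 in fPSCs, and H2afx fell by 1.59 in fPSCs. H2afj fell by 2.07 in EpiSCs. Relative to fPSCs, EpiSCs had 2 higher, led by H2afy2 (1.79), and 3 lower, led by H2afz (-1.40). There 19% of all genes were higher and 13.3% lower. The later fPSC records had 6 higher than the first, led by H3f3a (1.14) and H2afv (1.10), where 20.8% of all genes were higher.

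Chromatin at the histone genes was read in fPSCs at P10, within 1 kb of the annotated start, from 1 file each and so without a test. H3K4me3, a mark of active promoters, had a median of 4.45 RPKM over 66 members against 2.61 over 22367 protein-coding genes, and 52 members were above the latter value. H3K27me3, a mark of Polycomb repression, had medians of 0.0645 and 0.289 RPKM. The methylated fraction of cytosines had a median of 0.083 over 61 members, against 0.358. The abundant H2A genes, low in RNA in these cells, had a median H3K4me3 of 4.48 RPKM, and the other H2A genes 3.89 RPKM.

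Genes with a twin of identical transcript stood below the family's median H3K4me3 of 4.45 RPKM. Hist1h2ap and Hist1h2ao had 0.932 and 0.931 RPKM, and Hist1h2bq and Hist1h2br 0.869 and 0.932 RPKM. Hist2h2aa1 and Hist2h2aa2 were less low, at 2.36 and 1.55 RPKM. Hist1h2ap and Hist1h2br lie head to head and share most of a window, as do Hist1h2ao and Hist1h2bq. Reads mapping to several places had been removed from these tracks, and the part of this in the low values was not tested. Low values also occurred at Hist1h1t, Hist1h2aa and Hist1h2ba, genes known for their expression in testis, with 0.124, 0.249 and 0.311 RPKM, and methylated fractions of 0.869, 0.958 and 0.956. These genes were picked after their values were seen.

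Single fPSCs of 4 clones at passage 11 had been primed with oligo-dT, which anneals to poly(A). Counts summed over the cells of each clone came to between 1501395 and 4712214. All members together had 142, 382, 974 and 592 counts in clones 1 to 4, that is 94.6, 118, 207 and 242 CPM, counts scaled by the total of the clone. The 12 replacement histone genes had 2702, 2981, 3166 and 2825 CPM in these clones. The clones are of 1 condition, so no comparison of groups was made.

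Of the 69 members, 45 had counts and 24 were not listed in the single-cell tables. By type the counts were 750 for H1, 593 for H2A, 385 for H2B, 102 for H3 and 260 for H4, with Hist1h1b leading at 439. Among the abundant H2A genes, Hist1h2ap, Hist1h2ao, Hist1h2ad and Hist1h2ab were not listed and Hist1h2ae had 190 counts. Hist1h2ak had 223 counts, of which 211 came from 4 cells of clone 4, and the 49 counts of Hist1h2aj came from 1 cell. For a gene without counts, 3 counts correspond to 2.00, 0.925, 0.637 and 1.22 CPM in the 4 clones, a limit that covers counting error only.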

How the data were processed

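Bulk RNA-seq of 19 libraries was taken from the deposited table of FPKM, which the authors made with Cufflinks 2.1.1 after trimming (cutadapt 1.11) and alignment by TopHat2 2.1.1 to mouse cDNA of mm9. FPKM are scaled for depth and length. No read counts were used for these libraries, so their depth is unknown. FPKM summed to between 307394 and 414727, and 10034 to 10933 genes reached 1 FPKM per library. Of 23608 entries, 4 with repeated names were left out.

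Values were compared as log2(FPKM + 1) with limma 3.58.1 in R 4.3.3 (trend option, Benjamini-Hochberg over all genes that reached 1 FPKM in 2 or more libraries), in 1 fit over mESCs, EpiLCs, EpiSCs and 7 fPSC libraries. The fPSC record sets were fitted alone. Scripts were tested on simulated data. Alternatives were a pseudocount of 0.1, no filter, upper-quartile scaling, robust variances, fits of 2 groups only, fPSC subsets, each replicate left out, and a replicate block.

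Named were Hist1h2ap and Hist1h2an, the 3 members of each type with the highest mean FPKM, members reaching 10 FPKM, the 2 largest rises and falls among calls and, for other lists, the 2 largest changes. Members and lists were chosen with earlier results of these data known.

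ChIP-seq was deposited by the authors as RPKM per 100-bp bin (Bowtie2 2.2.2, mm9, duplicate and multi-mapped reads removed), and methylation as the fraction of methylated cytosines per 100-bp window (BS-Seeker2), without coverage. Single-cell counts were deposited by the authors as raw molecule counts per gene and cell. They were summed per clone. Sequences, gene positions and motifs were read from the mm9 genome and its annotation in Python 3.11.15.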

Additional observations from a re-analysis of the deposited data

Results flagged for a closer look

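In the 7 established fPSC libraries, 28 values were checked for a library far from the others by Dixon's test, which chance passes in about 1 of 20. For 3 members a library was set apart. Hist1h2ap was 8.40 FPKM in CMT P11 and 2.02 to 4.47 FPKM in the other libraries. Hist1h1c was 3.25 FPKM in BVSC P14, against 0.385 to 1.61 FPKM. Hist1h4k was 2.66 FPKM in P10, against 0.812 to 1.44 FPKM.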

How the results depend on the processing

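Of 57 alternative counts of called members, 53 stayed within 1.5 times the reported count. Of 503 alternative values of called members, 467 kept their direction and side of the threshold, 36 kept the direction only and none reversed. Leaving out 1 library at a time gave 11 to 15 calls for EpiLCs, 22 to 23 for fPSCs (mESC libraries left out) and 14 to 19 for EpiSCs against mESCs, 2 to 3 for EpiSCs against fPSCs, and 2 to 5 between fPSC record sets. Without the filter on low values, EpiSCs against fPSCs had 5 calls, and the cause was not tested. Upper-quartile scaling moved the median log2 change of all genes in EpiLCs from -0.06 to 0.04 and changed no call of a member there.

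Deviations of libraries with the same replicate number correlated at 0.208 for mESCs and EpiLCs, -0.203 for mESCs and EpiSCs and -0.138 for EpiLCs and EpiSCs, so the numbers were not taken as pairs. With the replicate number as a block, 17 members were called in EpiLCs and 22 in EpiSCs against mESCs. With the EpiSC numbers crossed, an alternative chosen after seeing the data, 22 were called. No paired analysis was possible for fPSCs because their labels share no replicate numbers with the other groups. FPKM without counts gives no depth, so differences between members near or below 1 FPKM cannot be weighed against counting error.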
